A study of Homo sapiens with 6 samples.

Results

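The DNA replication genes described here are 52 messages that build, load and feed the replication fork. They were taken by symbol from a list chosen with earlier results of these data known. All 52 were found among the 60461 gene identifiers of the table. They fall into 14 genes of origin licensing, 8 of origin firing, 9 of the polymerases and primase, 11 of the sliding clamp, clamp loader, RPA and flap processing, 6 of nucleotide supply and 4 of maintenance DNA methylation and histone deposition. Ribosome profiling measures RNA fragments protected by ribosomes, called footprints, beside the RNA of the same cells, called the input. The cells were HEK293T, an established line from human embryonic kidney. It makes the large T antigen of SV40, a viral protein that binds the retinoblastoma protein. They had received a PRMT1 inhibitor, a PRMT4 inhibitor or the vehicle DMSO, and each treatment had 1 input and 1 footprint library. PRMT1 and PRMT4 are arginine methyltransferases, and PRMT4 is also called CARM1. The labels give no compound, dose, duration or clone, so the groups differ by the named inhibitor as far as is stated.

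A replication origin is licensed in G1, when the origin recognition complex, CDC6 and CDT1 load the MCM2 to MCM7 helicase ring onto DNA. In S phase the CDC7 kinase and its activator DBF4, with CDC45, the GINS complex and MCM10, turn the loaded ring into a moving helicase, behind which the polymerases copy both strands and nucleotide enzymes supply the building blocks. Most of these genes are transcribed at the G1 to S transition under E2F factors, which the retinoblastoma protein restrains.

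The promoters of 5 members are shown, picked from the genes near the ends of the ratios given further on. MCM6, MCM7, UHRF1 and PRPS2 were among the lowest members and LIG1 was the highest in the input labelled PRMT4 inhibitor. Each line gives the 250 bases before the gene start from RefSeq on GRCh38.p14, read along the gene's strand. Capitals mark the letters TTTCCCGC, TTTCGCGC, TTTGCCGC or TTTGGCGC, the E2F type, and CCAAT, searched on both strands, where matches may overlap. The windows are chr2:135876444-135876693 on the minus strand for MCM6, chr7:100101398-100101647 on the minus strand for MCM7 and chr19:4909251-4909500 on the plus strand for UHRF1. They are chrX:12791162-12791411 on the plus strand for PRPS2 and chr19:48170345-48170594 on the minus strand for LIG1. MCM7 and UHRF1 have other listed starts, and the first of each is shown.
MCM6: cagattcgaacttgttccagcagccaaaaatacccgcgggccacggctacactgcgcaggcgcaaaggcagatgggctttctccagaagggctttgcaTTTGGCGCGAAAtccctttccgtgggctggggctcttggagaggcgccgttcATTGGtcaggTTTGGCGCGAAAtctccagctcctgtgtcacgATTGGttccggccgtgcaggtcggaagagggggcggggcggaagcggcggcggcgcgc
MCM7: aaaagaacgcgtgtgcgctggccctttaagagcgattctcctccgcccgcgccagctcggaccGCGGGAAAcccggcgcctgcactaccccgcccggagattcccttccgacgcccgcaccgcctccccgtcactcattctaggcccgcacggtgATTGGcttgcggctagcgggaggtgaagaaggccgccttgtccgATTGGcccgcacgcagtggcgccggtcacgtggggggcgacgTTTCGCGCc
UHRF1: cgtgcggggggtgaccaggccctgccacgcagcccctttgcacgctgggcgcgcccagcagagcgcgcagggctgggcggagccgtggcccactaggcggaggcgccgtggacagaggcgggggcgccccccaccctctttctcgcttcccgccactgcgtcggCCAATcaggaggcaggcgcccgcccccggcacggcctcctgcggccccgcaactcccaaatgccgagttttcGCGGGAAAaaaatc
PRPS2: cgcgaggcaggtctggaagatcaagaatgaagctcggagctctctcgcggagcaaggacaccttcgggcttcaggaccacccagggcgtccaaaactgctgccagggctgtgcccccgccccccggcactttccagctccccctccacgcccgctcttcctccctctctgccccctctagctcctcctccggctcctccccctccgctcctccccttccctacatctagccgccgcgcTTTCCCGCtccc
LIG1: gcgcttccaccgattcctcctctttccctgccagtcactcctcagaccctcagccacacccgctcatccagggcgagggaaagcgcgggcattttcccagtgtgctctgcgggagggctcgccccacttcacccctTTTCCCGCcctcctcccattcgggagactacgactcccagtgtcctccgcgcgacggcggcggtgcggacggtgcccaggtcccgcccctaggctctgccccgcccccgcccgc

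The MCM6 window held TTTGGCGC starting 152 and 90 bases before the gene start, each running into GCGCGAAA, the TTTCGCGC letters on the other strand. The UHRF1 window held GCGGGAAA, the other strand of TTTCCCGC, starting 14 bases before the start. PRPS2 held TTTCCCGC starting 12 bases before its start and LIG1 the same letters starting 114 bases before. RefSeq promoters were matched for 46 of the 52 members, and 17 of the 46, or 37.0%, held an E2F-type match in at least 1 listed window. All of the promoters shown held one, so they do not stand for the members as a whole. PRIM2, RRM1 and RFC4, also at the ends of ratios, held none and are not shown. Of all 27305 genes in that table, 3.40% did, and of all 35116 windows of that length 2.79% did. CCAAT was found for 58.7% of the matched members, against 37.0% of all genes. The medians with and without an E2F-type match lay close together, and none was computed by CCAAT. In the footprints labelled PRMT1 inhibitor the median centred log2 ratio to DMSO was -0.33 for the 17 with an E2F-type match and -0.27 for the 29 without. In the input labelled PRMT4 inhibitor the medians were -0.27 with a match and -0.24 without. LIG1, which stood highest there, and MCM7, which stood lowest, both held a match.

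Levels are the authors' TPM, a share of all transcripts after division by length. TPM does not carry the number of reads, so library depths are unknown here and no interval for counting error could be given. Between 30576 and 30860 genes were above 0 in the inputs and between 20485 and 21161 in the footprints. Protein-coding genes held 38.7% of the TPM in the input labelled PRMT1 inhibitor, 33.4% in that labelled PRMT4 inhibitor and 45.7% in the DMSO input. In the footprints they held 62.3% under the PRMT1 label, 70.6% under the PRMT4 label and 74.3% under DMSO. Of the markers of the line, VIM lay between 104 and 208 TPM, KRT18 between 31.5 and 58.2, KRT8 between 3.97 and 8.47 and NEFL between 1.5 and 7.0, while NEFM reached at most 1.97 and PAX2 1.15. Of the markers of other cells, PTPRC, ALB and MYH6 stayed at or below 0.03 TPM. In bulk samples, fewer cells in S phase and less RNA per cell cannot be told apart.

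Ratios are log2 of (TPM + 1) over (TPM + 1), centred on the median of the 9040 genes with a mean of at least 5 TPM over the 6 libraries, 8117 of them protein-coding. All 52 members passed that filter. Before centring, the median over tested genes was -0.16 for the PRMT1 label and -0.37 for the PRMT4 label in the inputs. In the footprints it was -0.15 for the PRMT1 label and -0.01 for the PRMT4 label. Translation efficiency, the footprint ratio over the input ratio of the same label, had medians of 0.02 under the PRMT1 label and 0.37 under the PRMT4 label. A gene is counted as lower or higher when it is at least 1.5-fold away from the median tested gene. Since each group was a lone library, no spread between replicates and no test could be had, and every difference describes these libraries only. The ratios of both inhibitor labels share the DMSO libraries, so their values are given side by side and not correlated.

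The labels of the input and footprint libraries did not line up, which bears on every result that combines them. The ratio of the PRMT1 label over the PRMT4 label can be formed in the inputs and in the footprints with no library in common. Over the 8117 protein-coding genes the 2 ratios had a Pearson r of -0.42 and a Spearman rho of -0.41. Over the 52 members r was -0.46 and rho -0.37. Among them 34 were higher in the input and lower in the footprints, 5 the reverse and 13 of the same sign. Of the 8117 protein-coding genes 2704 were higher in the input and lower in the footprints, 2499 the reverse and 2914 of the same sign. For the members, the ratio to DMSO in the footprints labelled PRMT1 inhibitor had an r of 0.56 with that in the input labelled PRMT4 inhibitor and 0.41 with that in the input of its own label. The footprints labelled PRMT4 inhibitor had an r of 0.53 with the input labelled PRMT1 inhibitor and 0.13 with the input of their own label. Over protein-coding genes the footprints labelled PRMT1 inhibitor had an r of 0.56 with the input labelled PRMT4 inhibitor and 0.36 with their own. The footprints labelled PRMT4 inhibitor had 0.46 with the input labelled PRMT1 inhibitor and 0.20 with their own. These correlations run across genes, which share their libraries and are not independent replicates. Whether labels were exchanged was not tested, and libraries are named by their labels throughout.

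**Figure D1:**
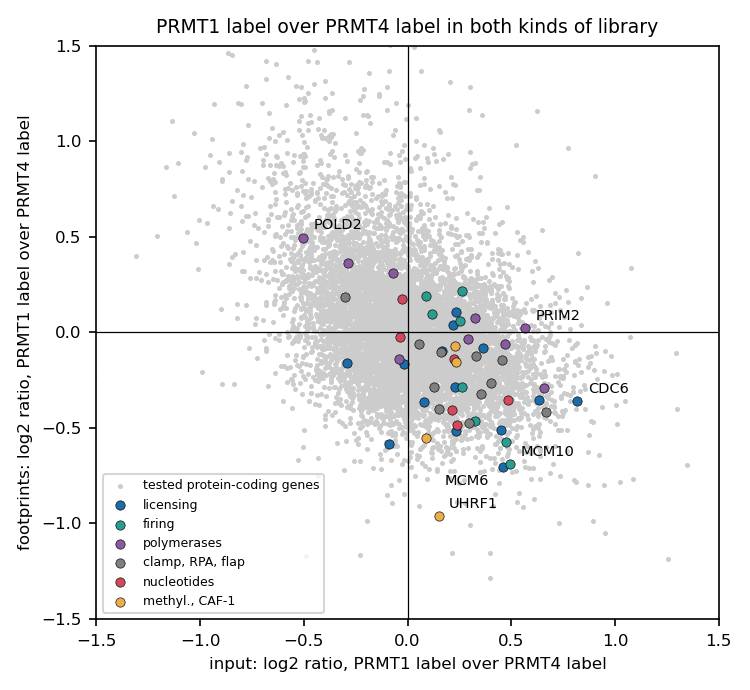
Centred log2 ratio of the PRMT1 inhibitor label over the PRMT4 inhibitor label in the inputs (horizontal) and in the footprints (vertical), 1 point per gene, with the 52 members coloured by role over the tested protein-coding genes in grey. 28 of the 8117 grey points lie outside the axes. At the lower right, higher in the input and lower in the footprints, lie 34 members and 2704 of the 8117 protein-coding genes.

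In deposited TPM the members were most often lowest under different labels in the 2 kinds of library. Of the 52, 48 had their lowest input value under the PRMT4 label, 3 under the PRMT1 label and 1 under DMSO. In the footprints 44 were lowest under the PRMT1 label, 6 under the PRMT4 label and 2 under DMSO. DMSO held the highest value of 41 members in the input and of 32 in the footprints. These counts are on TPM without centring, and the same counts over all tested genes were not made. The median tested gene was itself shifted against DMSO, by -0.37 on the log2 scale in the input labelled PRMT4 inhibitor and -0.16 in that labelled PRMT1 inhibitor. In the footprints the shift was -0.15 under the PRMT1 label and -0.01 under the PRMT4 label. The summed level of the 52 messages was 2095.9 TPM in the input labelled PRMT1 inhibitor, 1571.1 TPM in that labelled PRMT4 inhibitor and 2483.8 TPM in DMSO. In the footprints the sums were 3044.8 TPM under the PRMT1 label, 3822.4 TPM under the PRMT4 label and 4198.9 TPM under DMSO. The share of TPM in protein-coding genes was also lowest in the library with the lowest member sum of each kind, and its part in these sums was not tested.

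**Figure D2:**
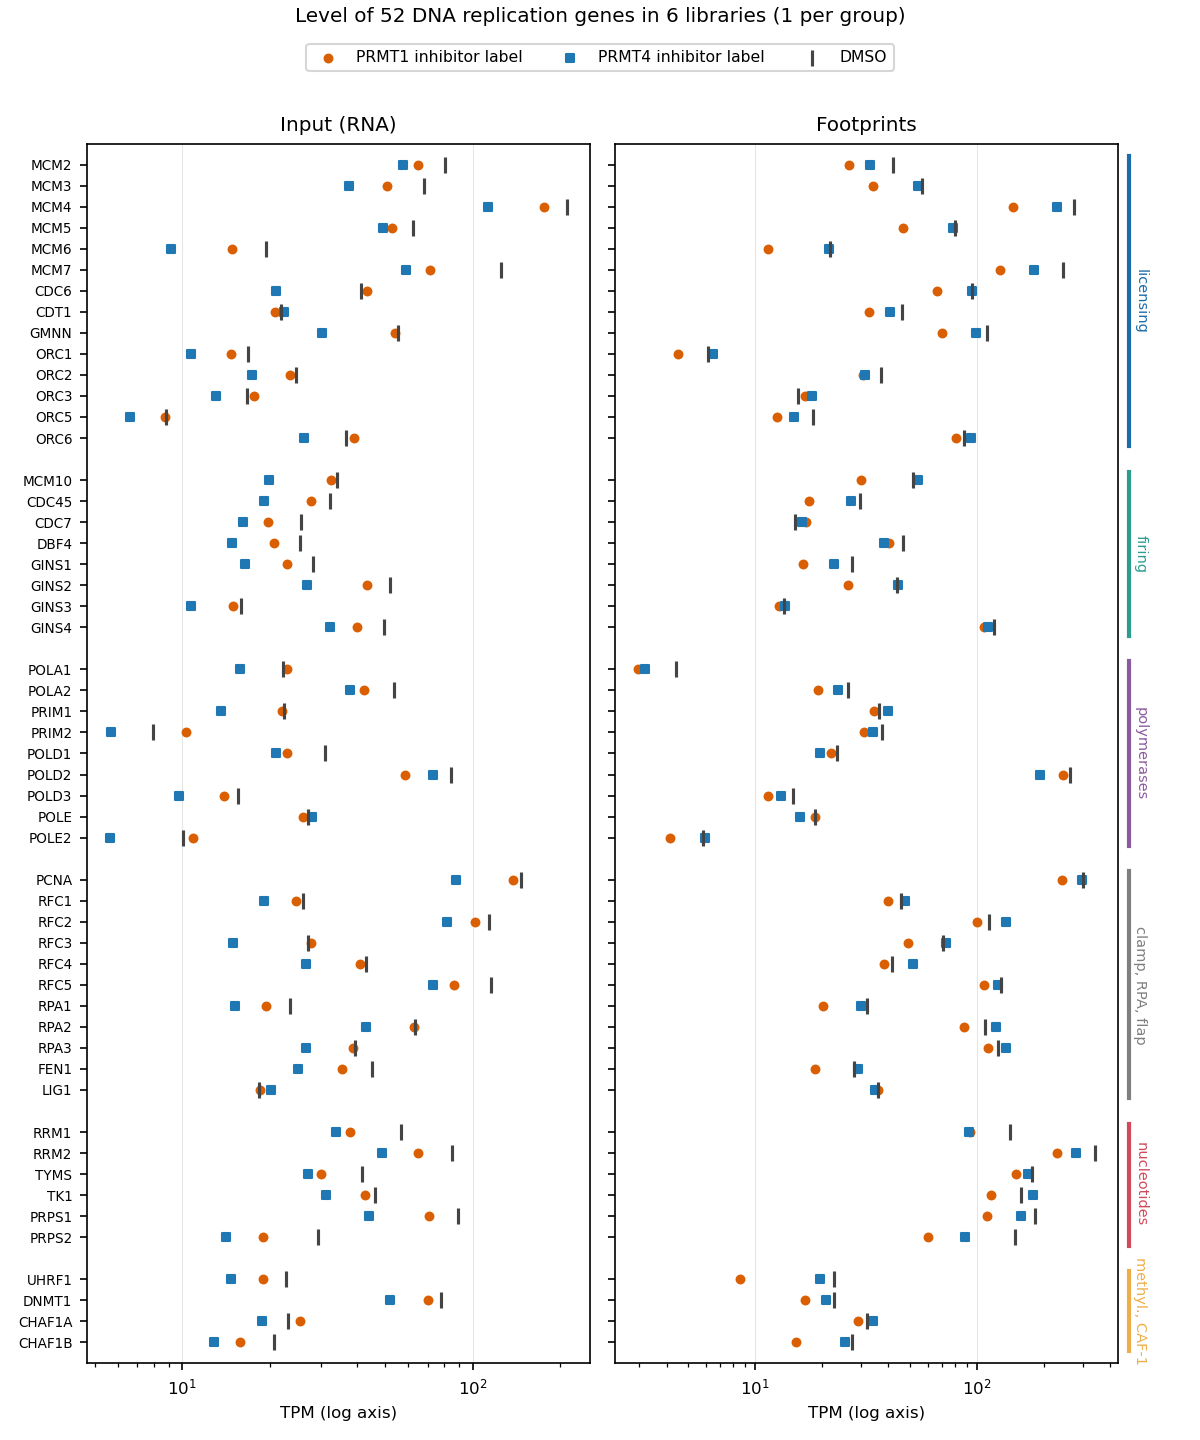
TPM of each of the 52 genes on a log axis in the inputs (left) and footprints (right), with orange circles for the PRMT1 inhibitor label, blue squares for the PRMT4 inhibitor label and dark ticks for DMSO, 1 library each. In the inputs the blue squares are lowest for 48 genes, and in the footprints the orange circles are lowest for 44. Levels are not centred, and the same counts over all tested genes were not made.

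Origin licensing, polymerases and nucleotide supply are set side by side first. The 14 licensing genes had median centred log2 ratios of 0.03 in the input labelled PRMT1 inhibitor, -0.18 in the input labelled PRMT4 inhibitor, -0.43 in the footprints labelled PRMT1 inhibitor and -0.11 in those labelled PRMT4 inhibitor. The 9 polymerase and primase genes had medians of 0.11 in the input and -0.12 in the footprints under the PRMT1 label, and of -0.12 in the input and -0.15 in the footprints under the PRMT4 label. The 6 nucleotide supply genes had medians of -0.26 in the input and -0.43 in the footprints under the PRMT1 label, and of -0.40 in the input and -0.24 in the footprints under the PRMT4 label. Nucleotide supply therefore had the lowest median of the 3 lists in all 4 ratios, tied with licensing at 2 decimals in the footprints labelled PRMT1 inhibitor, and the differences between lists were not tested. For the tested protein-coding genes all 4 medians lay between -0.02 and -0.01.

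**Figure D3:**
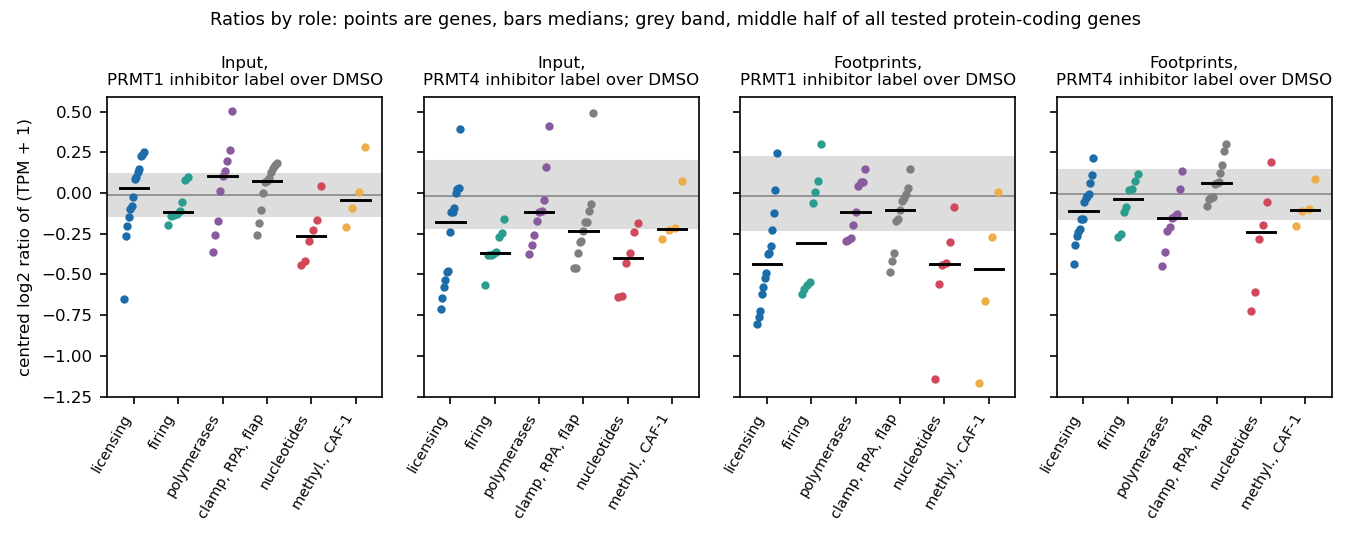
Centred log2 ratio to DMSO of each member by role in the 4 inhibitor libraries, with black bars for list medians and a grey band for the middle 50% of tested protein-coding genes. The licensing median lies at 0.03 in the input labelled PRMT1 inhibitor and at -0.43 in the footprints of that label, while the polymerase medians stay between -0.15 and 0.11.

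In the input labelled PRMT1 inhibitor the members' median sat at the median tested gene, and MCM7 alone lay past 1.5-fold. Their median log2 ratio to DMSO was -0.01, and 26 of 52 lay below 0, against 52.3% of protein-coding genes. MCM7 was the 1 member at least 1.5-fold lower, where 0.918% of all tested genes were, and no member was at least 1.5-fold higher, where 1.91% were. The lowest 3 were MCM7 at -0.65, PRPS2 at -0.44 and RRM1 at -0.41, and the highest 3 were PRIM2 at 0.50, CHAF1A at 0.28 and POLE2 at 0.26. Without centring the median was -0.17, which follows the shift of all tested genes. MCM7 was at -0.58 with protein-coding genes rescaled and at -0.54 after the trend on level was removed, which left 0 members at least 1.5-fold lower in either case.

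In the input labelled PRMT4 inhibitor 44 of the 52 members lay below the median tested gene, and all 14 genes of origin firing and nucleotide supply were among them. The members' median log2 ratio was -0.24, against -0.02 for protein-coding genes, of which 52.2% were below 0. MCM7 at -0.71, MCM6 at -0.64, PRPS2 at -0.64 and PRPS1 at -0.63 were at least 1.5-fold lower, 4 of 52, where 3.11% of tested genes were. No member was at least 1.5-fold higher, where 5.85% of tested genes were. LIG1 at 0.49, POLE at 0.41 and CDT1 at 0.39 were highest. The count of lower members depends on scaling. It was 30 without centring, with a median of -0.61, and 1 after the trend of the ratio on level was removed. The share of tested genes past 1.5-fold was not counted under these settings, and without centring the median tested gene was itself at -0.37.

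In the footprints labelled PRMT1 inhibitor UHRF1, PRPS2, 4 of the 6 genes of the helicase ring, CHAF1B, MCM10 and CDC45 stood lowest. The members' median log2 ratio was -0.28, and 40 of 52 lay below 0, against a median of -0.02 and 52.4% for protein-coding genes. At least 1.5-fold lower were 9 members, UHRF1, PRPS2, MCM7, MCM4, MCM6, CHAF1B, MCM5, MCM10 and CDC45, where 4.65% of tested genes were, and UHRF1 and PRPS2 were more than 2-fold lower. None was at least 1.5-fold higher, where 9.48% of tested genes were. CDC7 at 0.30, ORC3 at 0.25 and POLE at 0.15 were highest. Without centring the median was -0.43 and the median tested gene was at -0.15. The share of tested genes past 1.5-fold was not counted for the alternative settings that follow. The count of lower members was 16 without centring and 5 after the trend on level was removed or with protein-coding genes rescaled, and 34 of 52 members lay below 0 under either of these last settings.

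In the footprints labelled PRMT4 inhibitor PRPS2 and RRM1 alone lay past 1.5-fold. The median log2 ratio over the members was -0.07, with 34 of 52 below 0, against -0.01 and 51.5% for protein-coding genes. PRPS2 at -0.73 and RRM1 at -0.60 were at least 1.5-fold lower, where 1.83% of tested genes were, and none was at least 1.5-fold higher, where 3.09% were. POLD2 at -0.45 and MCM7 at -0.43 followed. RRM1 was at -0.54 with protein-coding genes rescaled and at -0.57 after the trend on level was removed, which left PRPS2 as the 1 lower member. With protein-coding genes rescaled, 26 of 52 members lay below 0. In this comparison RFC4 at 0.30, RFC2 at 0.26 and ORC3 at 0.22 were highest.

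**Figure D4:**
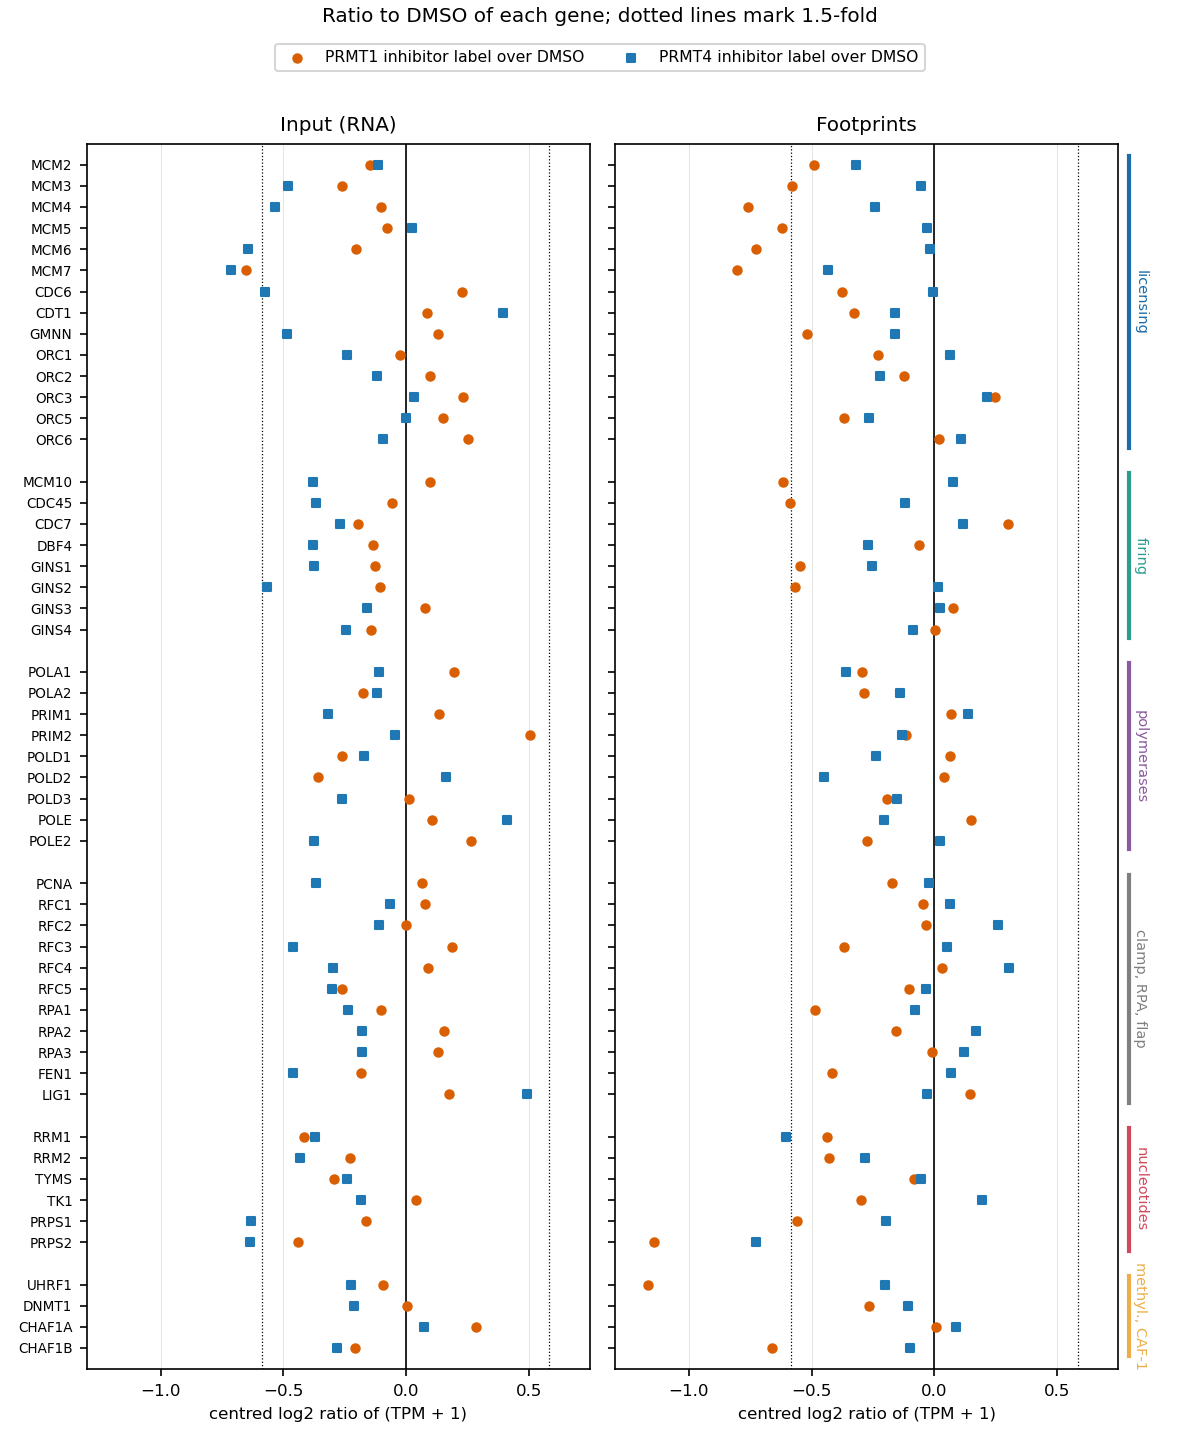
Centred log2 ratio to DMSO of each gene in the inputs (left) and footprints (right), with orange circles for the PRMT1 inhibitor label and blue squares for the PRMT4 inhibitor label, and dotted lines at 1.5-fold. UHRF1 and PRPS2 lie furthest left in the footprints labelled PRMT1 inhibitor, at -1.17 and -1.14, and no point passes the right dotted line.

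Within licensing, the 6 genes of the helicase ring had lower medians than the recognition complex in all 4 ratios to DMSO, a difference that was not tested. MCM7, a subunit of the ring, had 71.34 TPM in the input labelled PRMT1 inhibitor, 59.08 TPM in that labelled PRMT4 inhibitor and 125.8 TPM in the DMSO input. Its footprints had 126.64 TPM under the PRMT1 label, 180.64 TPM under the PRMT4 label and 245.3 TPM under DMSO. Both inhibitor labels were below DMSO in both kinds of library, with centred log2 ratios of -0.65 in the input and -0.80 in the footprints under the PRMT1 label, and -0.71 in the input and -0.43 in the footprints under the PRMT4 label. MCM6, another ring subunit, had 14.88 TPM in the input labelled PRMT1 inhibitor, 9.14 TPM in that labelled PRMT4 inhibitor and 19.41 TPM in the DMSO input. Its footprints had 11.48 TPM under the PRMT1 label, 21.48 TPM under the PRMT4 label and 21.84 TPM under DMSO. MCM6 was thus lowest under the PRMT4 label in the input and under the PRMT1 label in the footprints, where the PRMT4 label was level with DMSO.

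MCM4, the ring subunit with the highest level here, had 146.16 TPM in the footprints labelled PRMT1 inhibitor, 230.95 TPM in those labelled PRMT4 inhibitor and 274.49 TPM in DMSO footprints. The centred log2 footprint ratio under the PRMT1 label was -0.76 for MCM4, -0.62 for MCM5, -0.58 for MCM3 and -0.49 for MCM2. All 6 ring genes were below 0 in both footprint ratios, with medians of -0.67 under the PRMT1 label and -0.15 under the PRMT4 label, where 3 of 6 were below 0 with protein-coding genes rescaled. In the inputs 6 of 6 were below 0 under the PRMT1 label, with a median of -0.18, and 5 of 6 under the PRMT4 label, with a median of -0.51. MCM5 was the exception under the PRMT4 label, at 0.03. With the trend on level removed, 5 of 6 were below 0 in the input under the PRMT1 label and 4 of 6 under the PRMT4 label. The ring is built from equal numbers of its subunits, but the levels of their messages were unequal in every library, with the highest of the 6, MCM4, at 12.7-fold the lowest, MCM6, in the footprints labelled PRMT1 inhibitor, 10.8-fold in those labelled PRMT4 inhibitor and 12.6-fold in DMSO footprints.

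The recognition complex was represented among the members, without ORC4, by ORC1, ORC2, ORC3, ORC5 and ORC6, which mark origins and load the ring. Their median log2 ratio was 0.15 in the input labelled PRMT1 inhibitor, -0.09 in that labelled PRMT4 inhibitor, -0.12 in the footprints labelled PRMT1 inhibitor and 0.06 in those labelled PRMT4 inhibitor. None passed 1.5-fold in any of the 4 ratios, where between 0.918% and 9.48% of all tested genes did in a given direction. Whether these genes differ from the rest was not tested. ORC3 had footprints of 16.81 TPM under the PRMT1 label, 18.18 TPM under the PRMT4 label and 15.58 TPM under DMSO. Its input had 17.65 TPM under the PRMT1 label, 13.05 TPM under the PRMT4 label and 16.7 TPM under DMSO. Both inhibitor labels were above DMSO in its footprints, with log2 ratios of 0.25 under the PRMT1 label and 0.22 under the PRMT4 label. ORC1, which is known to be degraded after G1 in human cells, had footprints of 4.52 TPM under the PRMT1 label, 6.45 TPM under the PRMT4 label and 6.16 TPM under DMSO. In the input it had 14.72 TPM under the PRMT1 label, 10.76 TPM under the PRMT4 label and 16.87 TPM under DMSO.

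The loading factors differed from each other in the inputs. CDT1, which brings the ring to the origin, had 20.79 TPM in the input labelled PRMT1 inhibitor, 22.41 TPM in that labelled PRMT4 inhibitor and 21.95 TPM in the DMSO input. Its footprints had 32.84 TPM under the PRMT1 label, 40.82 TPM under the PRMT4 label and 45.99 TPM under DMSO. CDT1 input thus stayed level in TPM. The median tested gene was at -0.37 under the PRMT4 label before centring, which put the centred log2 ratio of CDT1 there at 0.39. CDC6, the ATPase that acts with CDT1, had 43.44 TPM under the PRMT1 label, 21.11 TPM under the PRMT4 label and 41.41 TPM under DMSO in the inputs. GMNN, the geminin protein that holds CDT1 inactive after G1, had 54.24 TPM under the PRMT1 label, 30.26 TPM under the PRMT4 label and 55.39 TPM under DMSO in the inputs. For CDC6 and GMNN the input under the PRMT1 label was close to DMSO and that under the PRMT4 label was well below, with log2 ratios of -0.57 for CDC6 and -0.49 for GMNN. In the footprints labelled PRMT1 inhibitor the log2 ratios were -0.37 for CDC6, -0.33 for CDT1 and -0.52 for GMNN.

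The genes of origin firing split in the footprints. MCM10, which helps the helicase to start unwinding, had footprints of 29.99 TPM under the PRMT1 label, 54.26 TPM under the PRMT4 label and 51.63 TPM under DMSO. The input held 32.63 TPM under the PRMT1 label, 19.94 TPM under the PRMT4 label and 34.1 TPM under DMSO. MCM10 footprints under the PRMT1 label and MCM10 input under the PRMT4 label lay well below DMSO, and the other inhibitor libraries near it. CDC45, part of the active helicase, had footprint log2 ratios of -0.59 under the PRMT1 label and -0.12 under the PRMT4 label. GINS2, also part of it, had -0.57 under the PRMT1 label and 0.02 under the PRMT4 label. GINS2 had 43.18 TPM in the input labelled PRMT1 inhibitor, 26.9 TPM in that labelled PRMT4 inhibitor and 52.14 TPM in DMSO. Its footprints had 26.28 TPM under the PRMT1 label, 43.99 TPM under the PRMT4 label and 43.68 TPM under DMSO. GINS3, in the same 4-subunit complex, had footprints of 12.81 TPM under the PRMT1 label, 13.67 TPM under the PRMT4 label and 13.5 TPM under DMSO, all close together. Input levels were 14.95 TPM under the PRMT1 label, 10.75 TPM under the PRMT4 label and 15.88 TPM under DMSO. GINS1 was at -0.55 and GINS4 at 0.00 in the footprints labelled PRMT1 inhibitor, so the complex was not uniform.

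CDC7, the kinase that fires origins, was the highest of the 52 in the footprints labelled PRMT1 inhibitor. It had footprints of 16.93 TPM under the PRMT1 label, 16.38 TPM under the PRMT4 label and 15.1 TPM under DMSO. In the input it had 19.78 TPM under the PRMT1 label, 16.15 TPM under the PRMT4 label and 25.59 TPM under DMSO. CDC7 footprints were therefore slightly above DMSO under both inhibitor labels while its input was below DMSO under both. DBF4, its activating subunit, had footprint log2 ratios of -0.06 under the PRMT1 label and -0.27 under the PRMT4 label.

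No polymerase or primase gene passed 1.5-fold in any of the 4 ratios to DMSO. Of all tested genes, between 0.918% and 9.48% passed it in a given direction and ratio. Whether this list differs from them was not tested. POLE, the catalytic subunit of the leading-strand polymerase epsilon, had 26.1 TPM in the input labelled PRMT1 inhibitor, 28.05 TPM in that labelled PRMT4 inhibitor and 27.09 TPM in the DMSO input. Its footprints had 18.74 TPM under the PRMT1 label, 15.98 TPM under the PRMT4 label and 18.68 TPM under DMSO. POLE2 was the other subunit among the members. In the inputs it had 10.92 TPM under the PRMT1 label, 5.63 TPM under the PRMT4 label and 10.08 TPM under DMSO. Its footprints had 4.13 TPM under the PRMT1 label, 5.94 TPM under the PRMT4 label and 5.86 TPM under DMSO. In the input labelled PRMT4 inhibitor these 2 subunits lay on opposite sides of the median tested gene, POLE at 0.41 and POLE2 at -0.38. The subunits POLE3 and POLE4 are among the non-members counted further on.

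POLD2, an accessory subunit of polymerase delta, had 58.72 TPM in the input labelled PRMT1 inhibitor, 73.26 TPM in that labelled PRMT4 inhibitor and 84.52 TPM in the DMSO input. Its footprints had 244.36 TPM under the PRMT1 label, 191.63 TPM under the PRMT4 label and 262.9 TPM under DMSO. POLD2 was, in TPM without centring, the reverse of most members, lowest under the PRMT1 label in the input and under the PRMT4 label in the footprints. How many of all tested genes have either order was not counted. POLA1, the catalytic subunit of polymerase alpha, had footprints of 2.98 TPM under the PRMT1 label, 3.19 TPM under the PRMT4 label and 4.4 TPM under DMSO, the lowest footprint level of all members in each library. Its input levels were 22.91 TPM under the PRMT1 label, 15.75 TPM under the PRMT4 label and 22.31 TPM under DMSO. PRIM2, the large primase subunit, had 10.3 TPM in the input labelled PRMT1 inhibitor, 5.7 TPM in that labelled PRMT4 inhibitor and 7.9 TPM in the DMSO input. Its footprints had 31.08 TPM under the PRMT1 label, 33.98 TPM under the PRMT4 label and 37.46 TPM under DMSO. Near-identical copies of PRIM2 exist in the genome, so its reads may be split between them and its values are uncertain.

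Genes of the clamp, clamp loader, RPA and flap processing had footprint list medians of -0.10 under the PRMT1 label and 0.06 under the PRMT4 label, relative to the median tested gene. Under the PRMT1 label 9 of 11 were below 0, but 5 with protein-coding genes rescaled and 4 with the trend on level removed. PCNA, the sliding clamp, had footprints of 242.06 TPM under the PRMT1 label, 296.48 TPM under the PRMT4 label and 302.2 TPM under DMSO. Its input had 137.75 TPM under the PRMT1 label, 87.93 TPM under the PRMT4 label and 146.87 TPM under DMSO. PCNA input was therefore lowest under the PRMT4 label, with a log2 ratio of -0.37, while its footprints there were level with DMSO at -0.02. RFC3, a clamp loader subunit, had input levels of 27.78 TPM under the PRMT1 label, 14.91 TPM under the PRMT4 label and 27.22 TPM under DMSO. Its footprints had 48.98 TPM under the PRMT1 label, 72.76 TPM under the PRMT4 label and 70.38 TPM under DMSO. RFC4 and RFC2, in the same loader, were the highest members in the footprints labelled PRMT4 inhibitor. RFC4 footprints had 38.34 TPM under the PRMT1 label, 51.32 TPM under the PRMT4 label and 41.59 TPM under DMSO. Its input had 40.85 TPM under the PRMT1 label, 26.75 TPM under the PRMT4 label and 42.91 TPM under DMSO. Under the PRMT4 label RFC4 thus had its lowest input and its highest footprints. RFC2 footprints had 100.51 TPM under the PRMT1 label, 136.05 TPM under the PRMT4 label and 113.92 TPM under DMSO. Its input had 102.12 TPM under the PRMT1 label, 81.8 TPM under the PRMT4 label and 114.01 TPM under DMSO, with the same order of labels as RFC4.

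RPA1, the large subunit of the factor that coats unwound DNA, was the lowest of this list in the footprints labelled PRMT1 inhibitor. It had footprints of 20.3 TPM under the PRMT1 label, 30.09 TPM under the PRMT4 label and 31.99 TPM under DMSO. Its input had 19.43 TPM under the PRMT1 label, 15.15 TPM under the PRMT4 label and 23.47 TPM under DMSO. LIG1, the ligase that joins Okazaki fragments, had footprints of 35.82 TPM under the PRMT1 label, 34.88 TPM under the PRMT4 label and 35.79 TPM under DMSO. Its input had 18.6 TPM under the PRMT1 label, 20.2 TPM under the PRMT4 label and 18.39 TPM under DMSO. LIG1 was thus level in TPM across all 3 labels in both kinds of library, and its centred ratio of 0.49 in the input labelled PRMT4 inhibitor is set against a median tested gene at -0.37 before centring. FEN1, which trims the flaps, had footprint log2 ratios of -0.42 under the PRMT1 label and 0.07 under the PRMT4 label.

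Of the nucleotide supply genes, all 6 were below the median tested gene in the input labelled PRMT4 inhibitor and in the footprints labelled PRMT1 inhibitor, where TYMS was at 0.02 with protein-coding genes rescaled and at 0.07 after the trend on level was removed. PRPS2, which makes the ribose phosphate donor of nucleotide synthesis, had footprints of 60.13 TPM under the PRMT1 label, 88.79 TPM under the PRMT4 label and 148.07 TPM under DMSO. In the input it had 18.98 TPM under the PRMT1 label, 14.1 TPM under the PRMT4 label and 29.25 TPM under DMSO. DMSO was highest in both kinds of library, with centred log2 ratios of -1.14 in the footprints and -0.44 in the input under the PRMT1 label, and -0.73 in the footprints and -0.64 in the input under the PRMT4 label. PRPS1, its close paralog, had footprints of 111.44 TPM under the PRMT1 label, 158.03 TPM under the PRMT4 label and 182.26 TPM under DMSO. Its input had 70.9 TPM under the PRMT1 label, 44.1 TPM under the PRMT4 label and 89 TPM under DMSO. PRPS1 was also highest in DMSO, by less in the footprints, at -0.56 under the PRMT1 label and -0.20 under the PRMT4 label. Their similar sequences can share reads, so the division of signal between PRPS1 and PRPS2 is uncertain.

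RRM1, the large subunit of ribonucleotide reductase, had footprints of 93.62 TPM under the PRMT1 label, 91.9 TPM under the PRMT4 label and 140.89 TPM under DMSO. The input held 37.86 TPM under the PRMT1 label, 33.75 TPM under the PRMT4 label and 56.84 TPM under DMSO, so both inhibitor labels lay close together and below DMSO in each kind of library. RRM2, the small subunit whose level follows S phase, had footprints of 229.45 TPM under the PRMT1 label, 280.13 TPM under the PRMT4 label and 342.38 TPM under DMSO. Its footprint log2 ratios were -0.43 under the PRMT1 label and -0.28 under the PRMT4 label. TYMS, which makes thymidylate, had footprints of 150.91 TPM under the PRMT1 label, 170.05 TPM under the PRMT4 label and 177.08 TPM under DMSO. Its input had 30.12 TPM under the PRMT1 label, 27.03 TPM under the PRMT4 label and 41.63 TPM under DMSO. The TYMS footprint log2 ratios, -0.08 under the PRMT1 label and -0.05 under the PRMT4 label, were the closest to 0 of the 6 genes. TK1, the salvage kinase of thymidine, had footprints of 115.49 TPM under the PRMT1 label, 179.62 TPM under the PRMT4 label and 157.63 TPM under DMSO. Its input had 42.49 TPM under the PRMT1 label, 31.3 TPM under the PRMT4 label and 46.23 TPM under DMSO.

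UHRF1, which reads hemimethylated DNA and recruits the maintenance methyltransferase, had the lowest ratio of any member. Its footprints had 8.56 TPM under the PRMT1 label, 19.61 TPM under the PRMT4 label and 22.77 TPM under DMSO. Input levels were 18.92 TPM under the PRMT1 label, 14.76 TPM under the PRMT4 label and 22.72 TPM under DMSO. The centred log2 ratio of its footprints was -1.17 under the PRMT1 label, against -0.20 under the PRMT4 label, and its input ratios were -0.09 under the PRMT1 label and -0.22 under the PRMT4 label. DNMT1, the methyltransferase it recruits, had footprints of 16.82 TPM under the PRMT1 label, 20.93 TPM under the PRMT4 label and 22.73 TPM under DMSO. Its input had 70.04 TPM under the PRMT1 label, 52.01 TPM under the PRMT4 label and 78.13 TPM under DMSO. CHAF1A and CHAF1B are subunits of CAF-1, which deposits histones behind the fork. CHAF1B footprints had 15.32 TPM under the PRMT1 label, 25.5 TPM under the PRMT4 label and 27.53 TPM under DMSO. In its input it had 15.86 TPM under the PRMT1 label, 12.9 TPM under the PRMT4 label and 20.74 TPM under DMSO. CHAF1A footprints had 29.03 TPM under the PRMT1 label, 33.95 TPM under the PRMT4 label and 32.05 TPM under DMSO. In its input it had 25.42 TPM under the PRMT1 label, 18.77 TPM under the PRMT4 label and 23.22 TPM under DMSO, so the subunits differed in the footprints labelled PRMT1 inhibitor, CHAF1B at -0.66 and CHAF1A at 0.01.

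Translation efficiency of the members lay lower under the PRMT1 label and higher under the PRMT4 label than in DMSO, and this contrast did not hold when each footprint library was set against the other inhibitor's input. Under the PRMT1 label the median log2 ratio was -0.26, with 43 of 52 below 0, against -0.01 and 51.0% for protein-coding genes. UHRF1 at -1.08, MCM10 at -0.72, PRPS2 at -0.70, MCM4 at -0.66, GMNN at -0.65, PRIM2 at -0.62 and CDC6 at -0.60 were at least 1.5-fold lower, 7 of 52 where 3.81% of tested genes were. None was at least 1.5-fold higher, where 8.45% were. Under the PRMT4 label the median was 0.17, with 38 of 52 above 0, against 0.01 and 4123 of 8117 for protein-coding genes. Lists of non-members, described further on, had medians of 0.22 for G1 to S regulators and 0.19 for other nucleotide synthesis. Other replication factors had 0.15 and G2 and M genes -0.08. POLE at -0.63 and POLD2 at -0.62 were at least 1.5-fold lower, where 8.22% of tested genes were, and MCM6 at 0.61 and RFC4 at 0.59 at least 1.5-fold higher, where 4.70% were. Without centring the median under the PRMT4 label was 0.54, with 23 members higher and 0 lower. The median tested gene was then at 0.37, and the share of tested genes past 1.5-fold was not counted. With the inputs crossed, the median was -0.04 under the PRMT1 footprint label and -0.06 under the PRMT4 footprint label. Under the PRMT1 footprint label UHRF1 was then at -0.96, CDT1 at -0.74, MCM5 at -0.66 and MCM10 at -0.26, and MCM6 under the PRMT4 footprint label at 0.18.

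Set directly against each other, the PRMT1 label was above the PRMT4 label for 42 of 52 members in the input and below it for 39 of 52 in the footprints, relative to the median tested gene. The median log2 ratio of the PRMT1 label over the PRMT4 label was 0.23 in the input and -0.16 in the footprints, against 0.01 in the input and -0.01 in the footprints for protein-coding genes. Of the 8117 tested protein-coding genes, 4131 were above the median tested gene in the input and 4191 below it in the footprints. Without centring the members' medians were 0.42 in the input and -0.30 in the footprints. In the input CDC6 at 0.82, RFC3 at 0.67, POLE2 at 0.66 and GMNN at 0.63 were at least 1.5-fold higher, where 4.02% of tested genes were, and none was at least 1.5-fold lower, where 4.14% were. In the footprints UHRF1 at -0.96, MCM6 at -0.70 and MCM10 at -0.69 were at least 1.5-fold lower, where 2.69% of tested genes were, and none was at least 1.5-fold higher, where 8.52% were.

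In DMSO cells the members covered a wide range of footprints per input, and nucleotide supply had the highest median of the 6 lists. The centred log2 of footprint over input in DMSO had a median of 0.35 over the 52 members, with 32 above 0. All 6 nucleotide supply genes were above 0, with a median of 1.78, from PRPS1 at 0.94 up to PRPS2 at 2.21. The medians of the other lists were 0.38 for licensing, -0.17 for firing, -0.47 for polymerases and primase, 0.68 for the clamp list and 0.11 for methylation and histone deposition. The highest 3 members were PRPS2 at 2.21, PRIM2 at 2.02 and TYMS at 1.98, and the lowest 3 were POLA1 at -2.20, DNMT1 at -1.82 and ORC1 at -1.41. The middle 50% of protein-coding genes lay between -0.70 and 0.66. TPM divides by transcript length while footprints lie on the coding part, and how far untranslated length sets these levels was not tested. Within the inhibitor labels the nucleotide supply median was 1.41 under the PRMT1 label and 2.03 under the PRMT4 label, with 6 of 6 above 0 in each.

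**Figure D5:**
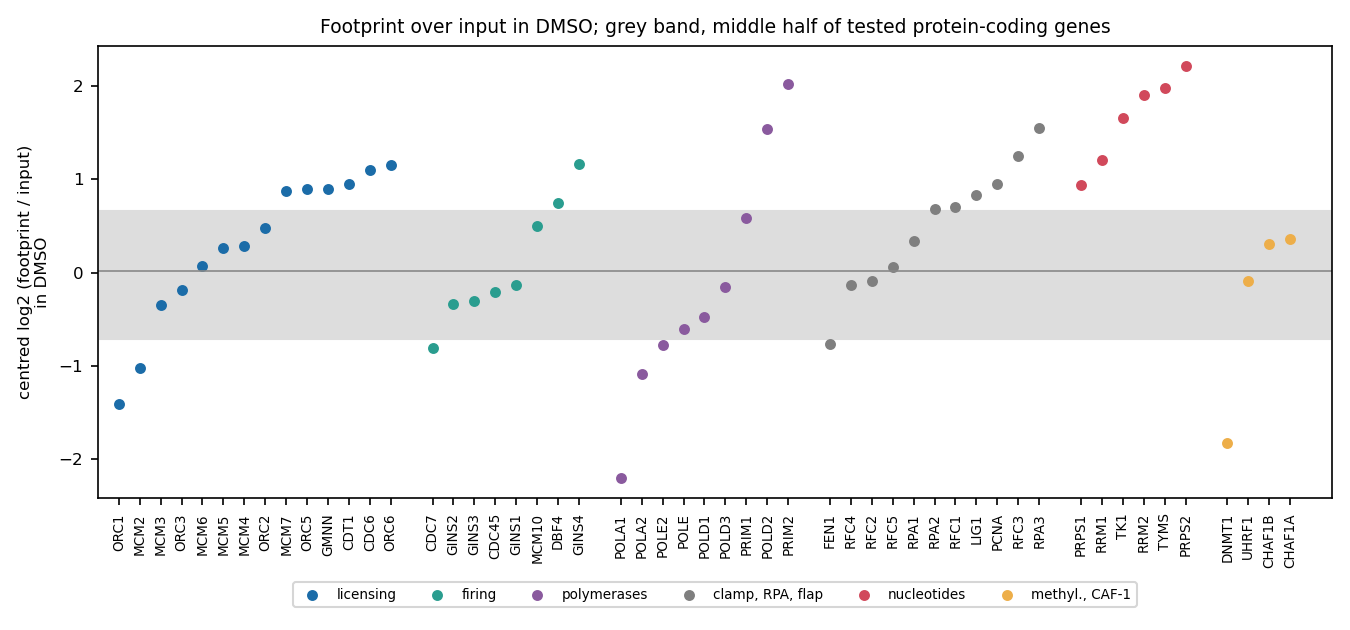
Centred log2 of footprint over input in the DMSO libraries for each member, grouped by role and sorted within it, with a grey band for the middle 50% of tested protein-coding genes. The 6 nucleotide supply genes lie between 0.94 and 2.21, above the band, while POLA1 and DNMT1 lie at -2.20 and -1.82.

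Other genes of the same processes were counted from lists of non-members, also chosen with earlier results of these data known. Of 28 other replication factors past the filter, the median log2 ratio was -0.04 in the input labelled PRMT4 inhibitor and 0.01 in the footprints labelled PRMT1 inhibitor, so they lay nearer the median tested gene than the 52 members. In that input 1 of the 28 was at least 1.5-fold lower, where 3.11% of tested genes were, and none higher, where 5.85% were. In those footprints 2 were lower, where 4.65% of tested genes were, and 2 higher, where 9.48% were. TOP1, the topoisomerase that relieves strain ahead of the fork, had log2 ratios of -0.92 in that input and -1.03 in those footprints, the lowest of the list in both, while MCM9 at 0.47 was highest in that input and MTBP at 0.87 in those footprints. Of 28 other nucleotide synthesis genes, 22 were below 0 in that input and 24 in those footprints, with medians of -0.29 in that input and -0.28 in those footprints. Among tested protein-coding genes 52.2% were below 0 in that input and 52.4% in those footprints. PPAT, the first enzyme of purine synthesis after the PRPS step, was lowest in that input at -0.69, and SHMT1, of folate metabolism, was lowest in those footprints at -0.69. PRPSAP1 at 0.17 was highest in that input, and CAD, which starts pyrimidine synthesis, at 0.52 in those footprints. In the input labelled PRMT1 inhibitor the medians were 0.10 for the other replication factors and -0.16 for the other nucleotide synthesis genes. In the footprints labelled PRMT4 inhibitor they were 0.01 for the factors and -0.13 for the nucleotide synthesis genes. The members' medians there were -0.01 and -0.07.

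The 26 G1 to S regulators had medians of -0.17 in the input labelled PRMT4 inhibitor and -0.13 in the footprints labelled PRMT1 inhibitor. CCND1, the D-type cyclin, was lowest in both, at -0.70 in that input and -0.98 in those footprints, and CDKN1A, the p21 inhibitor of cyclin-dependent kinases, was highest in both, at 1.1 in that input and 1.07 in those footprints. CDKN1A had 10.72 TPM in the input labelled PRMT1 inhibitor, 22.03 TPM in that labelled PRMT4 inhibitor and 12.87 TPM in the DMSO input. Its footprints had 35.69 TPM under the PRMT1 label, 21.33 TPM under the PRMT4 label and 18.3 TPM under DMSO. Of the 24 G2 and M genes past the filter, the median was -0.10 in that input and -0.07 in those footprints. CDK1 at -0.58 was the lowest and BUB1B at 0.29 the highest of that list in the input, and TPX2 at -0.51 the lowest and HMMR at 0.27 the highest in the footprints. In the input labelled PRMT1 inhibitor the medians were -0.06 for the G1 to S regulators and -0.10 for the G2 and M genes. In the footprints labelled PRMT4 inhibitor they were 0.01 for the regulators and -0.19 for the G2 and M genes. The members' medians there were -0.01 and -0.07, above those of the G2 and M genes in both. The part of a changed cell cycle in the members' ratios was not tested.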

How the data were processed

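Ribosome profiling libraries of HEK293T cells, 1 input and 1 footprint library for each of 3 treatments, were deposited by the authors as a table of TPM per gene. Per the submitters' processing notes, the tools were RSEM 1.2.22, STAR 2.4.2a, Bowtie 1.1.2 and cutadapt 1.18 on the build GRCh37.p13, with no step named for each. RNase I digestion and monosome collection on sucrose gradients are given per the labels' protocols. These describe all 6 libraries alike, and the preparation of the input RNA is not stated. Each column was assigned to the library whose title it matched.

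Of 60461 identifiers, 41 copies from the Y pseudoautosomal region, all at 0 TPM, were dropped. Gene types came from GENCODE release 29, on a later build, so no gene coordinates from it are given. Ratios used a pseudocount of 1 TPM, which understates changes of low genes. They were computed with Python 3.11.15, numpy 2.4.6, pandas 2.3.3 and scipy 1.17.1, drawn with matplotlib 3.10.9, and tested on simulated data. TPM keeps no depth, so precision per value is unknown. The values of 1 cell type marker are not reported here. Members and lists were chosen with earlier results of these data known. Values in all libraries were given for the 3 lowest and 3 highest members of each ratio to DMSO, the lowest and highest of each role list in the footprints labelled PRMT1 inhibitor and the input labelled PRMT4 inhibitor, the 3 highest and 3 lowest by footprint over input in DMSO, and PRPS1 and PRPS2. For MCM4, CDC6, GMNN, PCNA, RRM2 and CDKN1A, values by library were added after their values were seen. Alternatives were another pseudocount, other filters, no centring, rescaled protein-coding TPM, a removed lowess trend and crossed inputs.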

Additional observations from a re-analysis of the deposited data

Results flagged for a closer look

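The members lay on opposite sides of the median tested gene in the 2 kinds of library when the inhibitor labels were compared with each other. The median centred log2 ratio of the PRMT1 label over the PRMT4 label was 0.234 in the input and -0.156 in the footprints, so the difference between labels changed sign with the kind of library. The difference was not tested, since each group held 1 library. Of the 52 members, 34 were higher in the input and lower in the footprints.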

How the results depend on the processing

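No paired analysis was possible because each group held 1 library and no replicate numbers were given. With a pseudocount of 0.1, all 24 medians and counts of members stayed within 0.1 on the log2 scale or within 1.5 times. The changes below with no centring or another filter follow the centre, which moves all genes alike, or the set of genes that sets it. Crossed inputs instead replace the input library with that of the other inhibitor label. Shares of all tested genes past 1.5-fold were counted for the main setting and for crossed inputs only. Counts of members under the other settings have no such share beside them. For the trend removal and the rescaling the cause was not tested. In the input labelled PRMT1 inhibitor the median was -0.16 with no filter and -0.17 with no centring, the count of lower members 2 with no centring, 0 rescaled and 0 with the lowess trend removed, and the count of higher members 1 rescaled. In the input labelled PRMT4 inhibitor the median was -0.58 with no filter and -0.61 with no centring, and the count of lower members 7 at a filter of 1 TPM, 25 with no filter, 30 with no centring and 1 with the trend removed. In the footprints labelled PRMT1 inhibitor the median was -0.43 with no filter and -0.43 with no centring, and the count of lower members 16 with no filter, 16 with no centring, 5 rescaled and 5 with the trend removed. In the footprints labelled PRMT4 inhibitor the count of lower members was 1 rescaled and 1 with the trend removed. For translation efficiency under the PRMT1 label, crossed inputs gave a median of -0.036 and 3 lower members. With crossed inputs, 433 of the 9040 tested genes were lower under the PRMT1 label, and 263 lower and 185 higher under the PRMT4 label. Under the PRMT4 label the median was 0.51 with no filter, 0.54 with no centring and -0.064 with crossed inputs, which reversed its sign. Its count of lower members was 0 at a filter of 1 TPM, 0 with no filter, 0 with no centring and 1 crossed, and of higher members 4, 22 and 23 in the first 3 of these, 1 with the trend removed and 0 crossed. For the PRMT1 label over the PRMT4 label the input median was 0.41 with no filter and 0.42 with no centring, with 1 lower member after trend removal and 12 and 13 higher members with no filter and no centring. The footprint median was -0.30 with no filter and -0.30 with no centring, with 6 lower members at a filter of 1 TPM, 11 with no filter, 11 with no centring, and 1 higher member after trend removal. Of the values of named genes across these alternatives, 291 kept their side of the 1.5-fold line, 16 newly passed it and 11 no longer did, and none past it changed sign. Within it the sign changed for CHAF1A in the input labelled PRMT4 inhibitor (-0.26 with no filter, -0.29 with no centring) and in the footprints labelled PRMT1 inhibitor (-0.056 at a filter of 1 TPM, -0.14 with no filter or no centring). It also changed for TYMS in those footprints (0.022 rescaled, 0.072 with the trend removed), and with no filter and no centring for BUB1B (-0.042 and -0.071) and PRPSAP1 (-0.17 and -0.20) in the input labelled PRMT4 inhibitor. With 1 library per group and no depth in TPM, no error could be set beside any value.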
